A study of Mus musculus with 16 samples.

Results

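The 8 mouse Smad genes and the 2 genes of the Ski family, Ski and Skil, were followed through RNA sequencing of 2 immortalized epicardial cell lines under 4 treatments. These 10 genes were taken by symbol from the 30385 entries of the deposited count tables; all 10 were found and all 10 passed the filter on low counts. Both lines came from embryos of stage E11.5 on a mixed C57BL/6 and SV129 background, and both carry the Immorto transgene, which supplies a T antigen that was inactivated for the experiment by moving the cells from 33 °C to 37 °C. In the line called mt, genotype Tgfbr3-/-:Immorto, the co-receptor gene Tgfbr3 is knocked out; in the line called wt, genotype Tgfbr3+/+:Immorto, it is intact. Each line was seeded at 200000 cells per well and received 250 pM TGFB2, 250 pM TGFB1, 5 nM BMP2 or vehicle (VEH) for 72 h, with 2 libraries for each of the 8 groups and 16 libraries in all. There was 1 line per genotype, so an effect of the genotype and any other difference between the lines cannot be told apart.

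SMAD proteins carry the signal of TGF-beta family receptors to the nucleus. Type I receptors phosphorylate the receptor-activated SMADs: classically SMAD2 and SMAD3 downstream of TGF-beta and activin, and SMAD1, SMAD5 and SMAD9 downstream of BMP ligands. The activated proteins form complexes with the common partner SMAD4 and bind DNA. SMAD6 and SMAD7 are inhibitory SMADs that act at the receptors and on the complexes, SMAD6 mainly in the BMP branch and SMAD7 in both branches, and their genes are known as feedback targets of the pathway. SKI and SKIL (also called SnoN) are nuclear proteins that bind SMAD complexes and recruit co-repressors. In the epicardium, the cell layer that covers the heart, TGF-beta ligands are known to drive loss of epithelial character and transition to mesenchyme.

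The promoter windows of Smad6 and Smad9, the pair of members with the deepest falls under TGF-beta, are shown because the SMAD binding letters in them differ. The RefSeq windows, of build GRCm38.p6, ran from 250 bases before to 50 bases after a gene's start. They were examined for 6 of the 10 genes (Smad1, Smad3, Smad5, Smad6, Smad9 and Ski). Windows of Smad2, Smad4, Smad7 and Skil were not examined, so their motifs are not compared here. The motifs searched on both strands were the palindrome GTCTAGAC, the GC-rich element GGCGCC and the short box GTCT, which the palindrome contains once on each strand. Capitals mark the matches. The Smad6 window lies on the minus strand at chr9:64022010-64022309, and the Smad9 window on the plus strand at chr3:54755332-54755631.
Smad6: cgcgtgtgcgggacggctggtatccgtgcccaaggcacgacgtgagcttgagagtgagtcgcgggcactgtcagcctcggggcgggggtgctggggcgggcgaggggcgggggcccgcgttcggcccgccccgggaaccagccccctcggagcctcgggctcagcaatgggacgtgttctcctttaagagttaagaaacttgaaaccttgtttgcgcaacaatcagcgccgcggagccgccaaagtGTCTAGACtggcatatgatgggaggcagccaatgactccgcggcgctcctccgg
Smad9: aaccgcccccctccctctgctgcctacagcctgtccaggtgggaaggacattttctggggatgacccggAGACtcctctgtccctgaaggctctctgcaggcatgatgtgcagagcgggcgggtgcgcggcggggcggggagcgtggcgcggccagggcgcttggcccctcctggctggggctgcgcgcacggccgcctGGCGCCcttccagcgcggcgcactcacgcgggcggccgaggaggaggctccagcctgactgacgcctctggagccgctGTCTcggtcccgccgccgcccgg
The Smad6 window holds 1 palindrome, which begins 4 bases before the start and runs across it. The Smad9 window holds no palindrome; it has 1 GGCGCC, beginning 51 bases before the start, and 2 GTCT boxes, beginning 181 bases before and 27 bases after it. Of 32851 windows of the same length, 0.213% hold the palindrome, 11.9% hold GGCGCC and 88.0% hold the short box. Among the other members examined, 1 Ski window and 2 of the 3 Smad5 windows hold GGCGCC. Neither the Smad1 nor the Smad3 window holds the palindrome or GGCGCC. A match describes the letters and is not a measured binding site.

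Library totals ran from 6410320 to 31813921 reads. Levels below are TMM-scaled counts per 1e+06 reads (CPM), and values per library are those of replicate 1 and then replicate 2. Changes are log2 fold changes ± SE from a quasi-likelihood fit to all 16 libraries with 2 per group, with p-values adjusted over 16835 genes and a threshold of 0.05. That fit has no term for the replicate number, although same-numbered libraries deviated alike from their group means. For the 10 genes, a fit with the replicate number as a block is given where it changes a call. For the gene lists below, blocked counts are given in some cases only. Nothing in the labels tells if the replicates were separate cultures, and p-values then measure the spread between these samples, which may be technical. Tgfbr3, the targeted gene, was at 9.73 to 18.2 CPM in the mt libraries, against 32.5 to 100 CPM in the wt libraries; in VEH the difference was -2.39 ± 0.32 (adjusted p = 0.0019). Of the epicardial and mesothelial markers, 10 of 10 were found in the tables, and their summed level was 778 to 979 CPM in mt cells with TGFB2 or TGFB1, 3540 to 4110 CPM in mt cells with BMP2 or VEH, 1230 to 1470 CPM in wt cells with TGFB2 or TGFB1 and 3470 to 3630 CPM in wt cells with BMP2 or VEH. The transcript of the cardiomyocyte myosin gene Myh6 stood at 14.6 to 28.4 CPM in the 4 mt replicate 1 libraries and at 0 to 0.44 CPM in the other 12, and those of Myh7 and Actc1 were split the same way. The 12 cardiomyocyte markers, with most of their sum from Tnnt2, reached 182 to 262 CPM in mt cells with TGFB2 or TGFB1, 63.8 to 195 CPM in mt cells with BMP2 or VEH, 661 to 917 CPM in wt cells with TGFB2 or TGFB1 and 155 to 388 CPM in wt cells with BMP2 or VEH. In the same order of groups, the 6 endothelial markers summed to 15 to 23.2, 29.4 to 46.5, 21.6 to 29.5 and 45 to 87.5 CPM. The 4 blood markers found, of 5, summed to 22.4 to 30, 18.2 to 32.4, 20.7 to 35.7 and 10.3 to 16.7 CPM in that order. Over the libraries Kdr was at 13.8 to 62.3 CPM and Tek at 0.917 to 24.2 CPM. Pecam1, Cdh5, Tie1 and Emcn stayed at or below 1.36 CPM. Of the blood markers, Cd68 was at 8.32 to 34.9 CPM and Csf1r at 0.364 to 5.49 CPM, while Ptprc and Hbb-y stayed at or below 0.22 CPM. For the mt line, calls that are lost without the 4 mt replicate 1 libraries are given with and without them. Each mt group then has 1 library, which is assumed to vary like the other groups.

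Under TGF-beta, Smad6 and Smad9 fell and Skil rose in both lines. Smad7 rose with TGFB2 and TGFB1 in mt cells and did not pass the test in wt cells. BMP2 raised Smad7 in mt cells, and no member passed the test with BMP2 in wt cells. When single compared libraries were left out, the Smad7 calls in mt cells were lost in most fits for TGF-beta and in all fits for BMP2. No difference between the lines in the effect of a ligand on Smad7 passed the test. With TGFB2 against VEH, 4 of 10 members passed the test in mt cells, where 17.4% of all genes tested did, and 3 of 10 passed in wt cells, where 20.1% did. With TGFB1 against VEH the counts were 4 of 10 in mt cells, against 16.4% of all genes, and 3 of 10 in wt cells, against 19% of all genes. With the replicate number as a block 6 of 10 members passed with TGFB2 in mt cells, against 33.5% of all genes, and 4 of 10 in wt cells, against 34.7%. For TGFB1 the blocked counts were 6 of 10 in mt cells, against 32.5%, and 5 of 10 in wt cells, against 33.4%. The members added by the block were Smad3 and Smad4 in mt cells, Smad2 in wt cells and, with TGFB1, Smad3 in wt cells. The TGFB2 and TGFB1 comparisons of a line share its VEH libraries. In bulk RNA, a lower level in each cell and fewer cells that make a transcript cannot be told apart. The summed epicardial and mesothelial markers and the summed endothelial markers were lower in the TGF-beta libraries of both lines, like Smad6 and Smad9. The summed cardiomyocyte and blood markers were higher in the TGF-beta libraries of the wt line, like Skil. The blood sum came mainly from Cd68, and the endothelial sum mainly from Kdr and Tek. In the epicardial and mesothelial sum, Upk3b (up to 1700 CPM), Lrrn4 (up to 1180 CPM) and Msln (up to 1140 CPM) reached the highest levels. Wt1 reached 226 CPM and Tbx18 88.1 CPM. Single markers of this sum were not compared between groups. The part of these markers in the results was not tested.

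**Figure D1:**
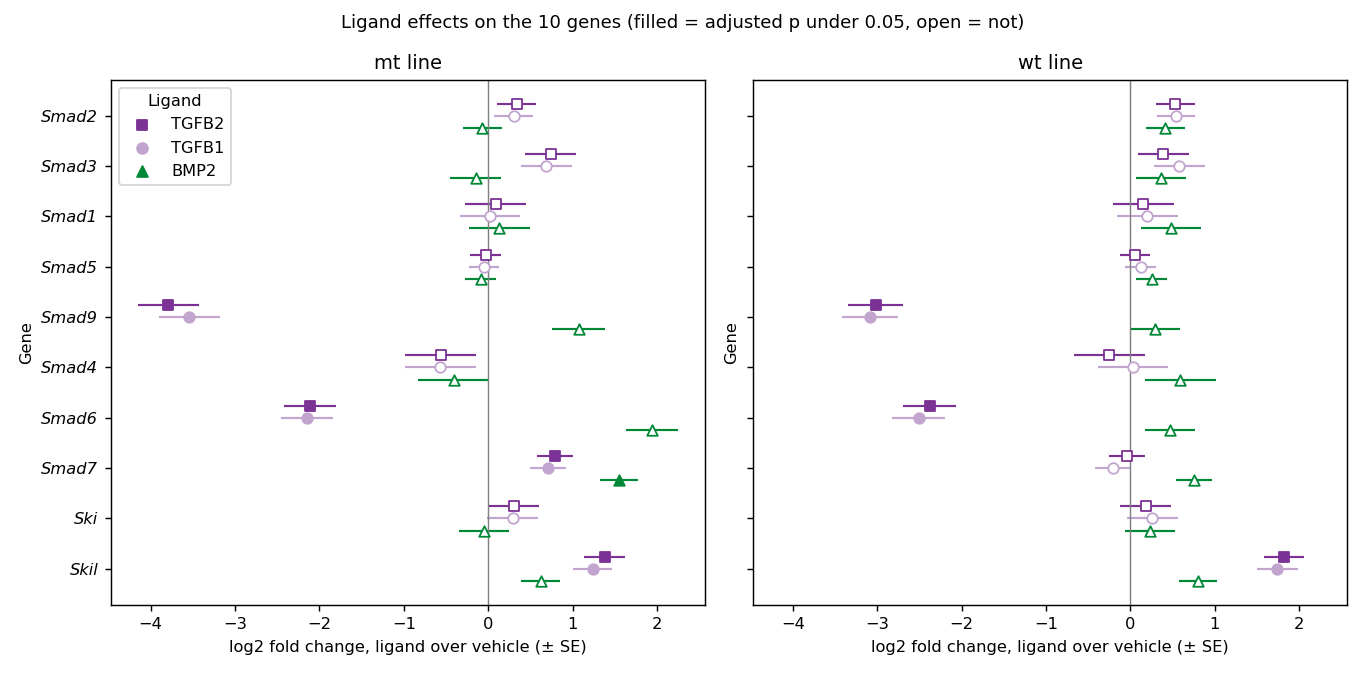
Log2 fold change of each ligand over vehicle, ± SE, for the 10 genes (rows) in the mt line (left) and the wt line (right). Squares are TGFB2, circles TGFB1 and triangles BMP2; filled symbols have an adjusted p under 0.05. Smad9 and Smad6 lie far to the left with both TGF-beta ligands, Skil lies to the right, and Smad7 is filled in the mt line only; the differences between the lines did not pass the test.

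Smad6 encodes the inhibitory SMAD of the BMP branch and lies on chromosome 9 (mm9, minus strand, 63800882 to 63869866). In mt cells its level was 19.4 and 22.6 CPM with TGFB2, 20.5 and 20.5 CPM with TGFB1, 374 and 321 CPM with BMP2, and 61.4 and 120 CPM with VEH. In wt cells it was 30.6 and 40 CPM with TGFB2, 29.2 and 35.4 CPM with TGFB1, 300 and 211 CPM with BMP2, and 194 and 175 CPM with VEH. All 8 TGF-beta libraries lay below all 8 others. Against VEH, Smad6 fell 4.32-fold with TGFB2 in mt cells (-2.11 ± 0.31, adjusted p = 0.00079) and 5.21-fold in wt cells (-2.38 ± 0.31, adjusted p = 0.00036). TGFB1 gave falls of 4.43-fold in mt cells (-2.15 ± 0.31, adjusted p = 8e-04) and 5.69-fold in wt cells (-2.51 ± 0.31, adjusted p = 0.00033). From the lowest group to the highest, Smad6 stood in the order mt TGFB1, mt TGFB2, wt TGFB1, wt TGFB2, mt VEH, wt VEH, wt BMP2 and mt BMP2. Overlap between neighbours in that order was limited to mt TGFB1 with mt TGFB2 and wt TGFB1 with wt TGFB2.

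With BMP2 the Smad6 level in mt cells was 3.82-fold that with VEH, a change of 1.94 ± 0.31. It did not pass the test in the main edgeR fit, which has no replicate term (adjusted p = 0.068). With the replicate number as a block it passed (adjusted p = 0.0053), where 0.232% of all genes did. Without a replicate term it also passed by DESeq2 (1.94, adjusted p = 4e-06) and by edgeR with no filter on low counts (1.93, adjusted p = 0.0025). It did not pass with RLE size factors or in a fit to only the compared groups. The 2 VEH libraries of the mt line differ by almost 1 on the log2 scale, and the change was 2.5 (adjusted p = 0.047) without mt VEH replicate 2 and 1.42 (adjusted p = 1) without the 4 mt replicate 1 libraries. In wt cells the change with BMP2 was 0.47 ± 0.30 (adjusted p = 0.92).

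Smad7 encodes the inhibitory SMAD that acts on both branches and lies on chromosome 18 (mm9, plus strand, 75527018 to 75555588). Its level in mt cells was 100 and 99.8 CPM with TGFB2, 97.5 and 92.3 CPM with TGFB1, 188 and 152 CPM with BMP2, and 49.2 and 66.8 CPM with VEH. Wt cells had 89 and 88.5 CPM with TGFB2, 79.4 and 78.5 CPM with TGFB1, 178 and 130 CPM with BMP2, and 94.2 and 88.8 CPM with VEH. The mt VEH libraries were the lowest of the 16, and the 4 BMP2 libraries were the highest. Smad7 rose with TGFB2 in mt cells, by 0.79 ± 0.21 (adjusted p = 0.025), and with TGFB1, by 0.71 ± 0.21 (adjusted p = 0.041). In wt cells the values were -0.04 ± 0.21 with TGFB2 (adjusted p = 0.93) and -0.21 ± 0.21 with TGFB1 (adjusted p = 0.58). The mt calls were lost in 3 of the 4 fits that left out 1 compared library for each ligand, all but the fit without mt VEH replicate 2, and with no filter on low counts (adjusted p = 0.077 with TGFB2 and 0.12 with TGFB1). Without the 4 mt replicate 1 libraries the changes were 0.58 with TGFB2 (adjusted p = 0.31) and 0.46 with TGFB1 (adjusted p = 0.43), and without mt VEH replicate 1 alone they were 0.58 (adjusted p = 0.15) and 0.5 (adjusted p = 0.22).

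BMP2 raised Smad7 2.92-fold in mt cells (1.55 ± 0.22, adjusted p = 0.034). That made 1 of 10 members called with BMP2 in mt cells, where 0.0416% of all genes passed. The change was 1.19 (adjusted p = 1) without the 4 mt replicate 1 libraries, and each of the 4 fits that left out 1 of the compared libraries also lost the call, with changes of 1.34 to 1.79. In wt cells BMP2 gave 0.75 ± 0.21 (adjusted p = 0.91). By edgeR 0 of 10 members and 0% of all genes passed with BMP2 in wt cells, while 2 members, Smad7 and Skil, and 867 genes had an unadjusted p under 0.05; DESeq2 called 14 genes and 0 members.

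**Figure D2:**
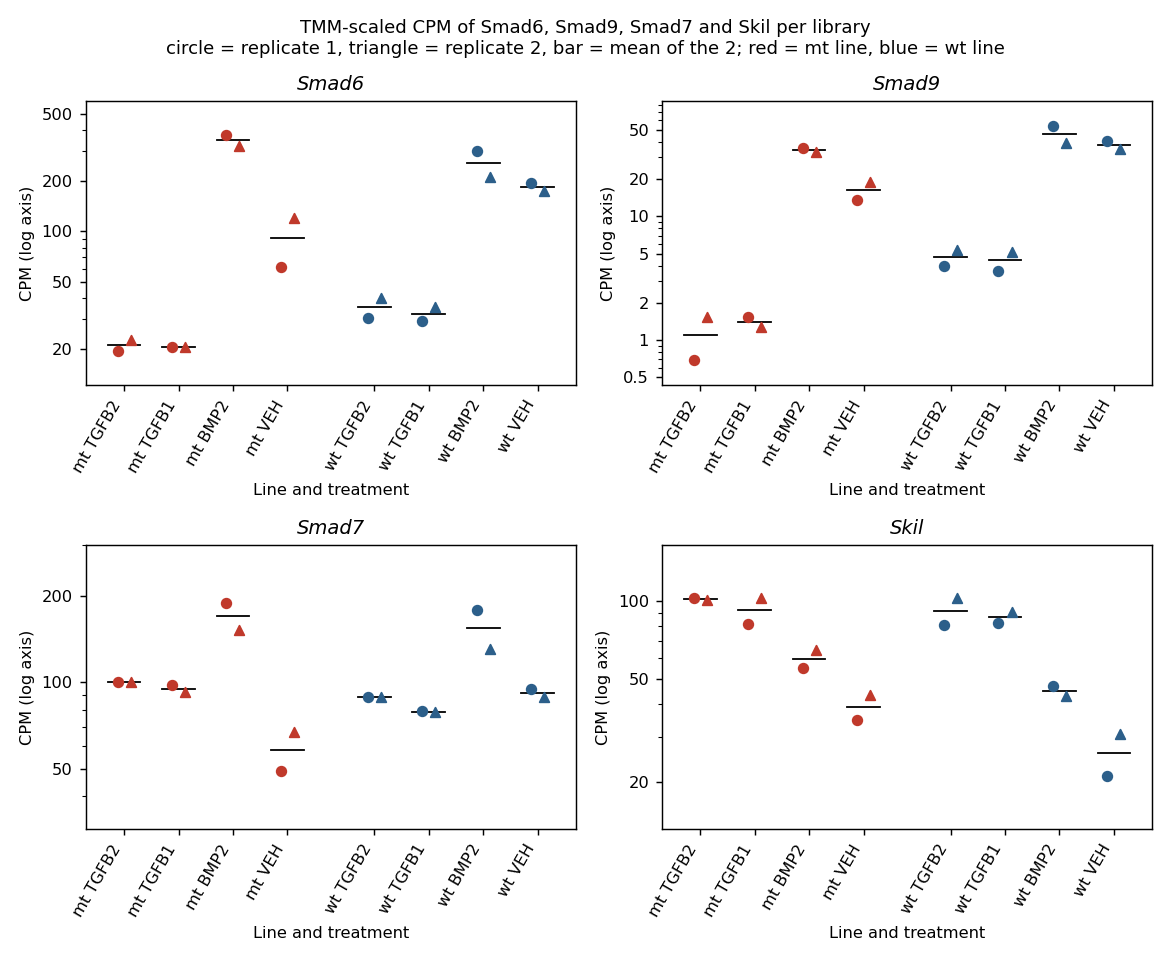
CPM (log axis) of Smad6, Smad9, Smad7 and Skil in each library, by line and treatment; circles are replicate 1, triangles replicate 2, and bars the mean of the pair. The TGF-beta libraries of Smad6 lie between 19.4 and 40 CPM and those of Smad9 between 0.689 and 5.34 CPM, below every BMP2 and VEH library of the same gene.

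Smad9 encodes a receptor-activated SMAD of the BMP branch, also known as SMAD8, and lies on chromosome 3 (mm9, plus strand, 54559503 to 54605179). In mt cells it had 0.689 and 1.53 CPM with TGFB2, 1.54 and 1.28 CPM with TGFB1, 35.7 and 33 CPM with BMP2, and 13.7 and 19 CPM with VEH. The mt TGF-beta values rest on 9 to 43 reads per library. Wt cells had 4.01 and 5.34 CPM with TGFB2, 3.65 and 5.18 CPM with TGFB1, 53.9 and 39.4 CPM with BMP2, and 41 and 35.1 CPM with VEH. Smad9 had the largest TGF-beta change of the 10 genes in each line: with TGFB2 it fell 13.8-fold in mt cells (-3.79 ± 0.36, adjusted p = 6e-05) and 8.10-fold in wt cells (-3.02 ± 0.33, adjusted p = 0.00016). With TGFB1 it fell 11.7-fold in mt cells (-3.54 ± 0.36, adjusted p = 9.7e-05) and 8.54-fold in wt cells (-3.09 ± 0.33, adjusted p = 0.00016). With BMP2 the changes were 1.07 ± 0.31 in mt cells (adjusted p = 0.78) and 0.29 ± 0.30 in wt cells (adjusted p = 0.96).

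By level, Smad9 was lowest in mt TGFB2, followed by mt TGFB1, wt TGFB1, wt TGFB2, mt VEH, mt BMP2, wt VEH and wt BMP2. Neighbours overlapped within mt TGFB2 and mt TGFB1, within wt TGFB1 and wt TGFB2, and along the last 3 groups of the order. The mt TGF-beta groups thus lay below the wt TGF-beta groups with no overlap, and the mt VEH group below the wt VEH group.

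Smad1 and Smad5, the other receptor-activated SMAD genes of the BMP branch, did not pass the test in any of the 15 comparisons. Smad1 (mm9, chromosome 8, minus strand, 81862297 to 81923367) ranged from 26.2 to 59.2 CPM, and its ligand changes ran between 0.02 and 0.48. Smad5 (mm9, chromosome 13, plus strand, 56804370 to 56843739) ranged from 51 to 73.6 CPM, the narrowest range of the 10 genes in proportion, with ligand changes between -0.09 and 0.25. For Smad5 the 95% intervals of the TGFB2 changes were -0.41 to 0.36 in mt cells and -0.33 to 0.44 in wt cells. Groups of Smad1 and Smad5 that neighbour each other in level overlapped throughout.

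Set against the reads of all 3 BMP-branch receptor-activated SMAD genes in the same library, Smad9 took 0.655% and 1.68% in mt cells with TGFB2, 1.49% and 1.45% with TGFB1, 24.9% and 28.2% with BMP2, and 11.9% and 17.5% with VEH. In wt cells it took 3.94% and 5.58% with TGFB2, 3.53% and 5.06% with TGFB1, 28.9% and 30.2% with BMP2, and 31% and 29% with VEH. These are shares of reads, not corrected for transcript length, and so compare libraries, not genes. Such shares do not depend on library scaling, and the mt VEH libraries lay apart from all 4 wt libraries with BMP2 or VEH.

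**Figure D3:**
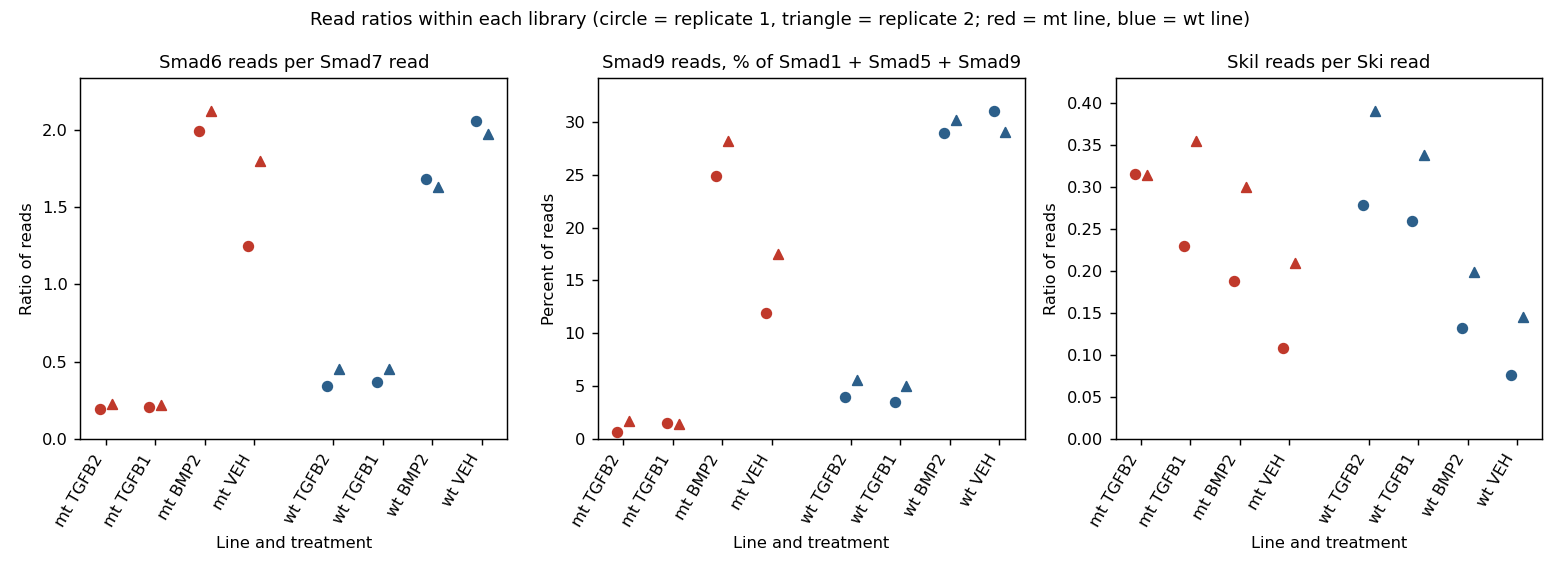
Ratios of reads within each library, by line and treatment: Smad6 reads per Smad7 read, Smad9 reads as a percent of Smad1, Smad5 and Smad9 reads, and Skil reads per Ski read; circles are replicate 1 and triangles replicate 2. The ratio of Smad6 to Smad7 is 0.193 to 0.452 in the 8 TGF-beta libraries and 1.25 to 2.12 in the others.

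The reads of the inhibitory SMAD genes were set against each other within each library. Per Smad7 read there were 0.193 and 0.226 Smad6 reads in mt cells with TGFB2, 0.21 and 0.222 with TGFB1, 1.99 and 2.12 with BMP2, and 1.25 and 1.80 with VEH. Wt cells had 0.344 and 0.452 with TGFB2, 0.368 and 0.451 with TGFB1, 1.68 and 1.63 with BMP2, and 2.06 and 1.97 with VEH. With BMP2 the mt libraries were above the wt libraries, and with VEH they were below them.

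Among the TGF-beta-branch SMAD genes, Smad3 (mm9, chromosome 9, minus strand, 63494573 to 63605801) had 102 and 101 CPM in mt cells with TGFB2, 106 and 90 CPM with TGFB1, 66 and 43.6 CPM with BMP2, and 78.8 and 42.7 CPM with VEH. In wt cells it had 71.6 and 55.5 CPM with TGFB2, 80.3 and 64 CPM with TGFB1, 71.7 and 52.6 CPM with BMP2, and 48.3 and 48.4 CPM with VEH. The 4 mt TGF-beta libraries were the highest of the 16. From low to high the groups were wt VEH, mt BMP2, mt VEH, wt BMP2, wt TGFB2, wt TGFB1, mt TGFB1 and mt TGFB2, and every pair of neighbours overlapped except wt TGFB1 and mt TGFB1. The changes against VEH were 0.74 ± 0.30 with TGFB2 (adjusted p = 0.12) and 0.69 ± 0.30 with TGFB1 (adjusted p = 0.15) in mt cells, and 0.39 ± 0.30 (adjusted p = 0.43) and 0.58 ± 0.30 (adjusted p = 0.23) in wt cells. With the replicate block the adjusted p was 0.007 with TGFB2 and 0.012 with TGFB1 in mt cells, and 0.042 with TGFB1 in wt cells. Without mt VEH replicate 1 the mt changes were 1.24 with TGFB2 (adjusted p = 0.022) and 1.19 with TGFB1 (adjusted p = 0.027), and without the 4 mt replicate 1 libraries they were 1.24 (adjusted p = 0.06) and 1.07 (adjusted p = 0.095). The Smad3 entry overlaps the same-strand entry AK214683, and how shared reads were counted is not stated in any source used here.

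Smad2 (mm9, chromosome 18, plus strand, 76401578 to 76465385) ranged from 24.4 to 51.1 CPM, the lowest value being that of wt VEH replicate 1. Its changes in wt cells were 0.53 ± 0.23 with TGFB2 (adjusted p = 0.14) and 0.54 ± 0.23 with TGFB1 (adjusted p = 0.13), which with the replicate block had an adjusted p of 0.024 and 0.022. In mt cells they were 0.34 ± 0.23 with TGFB2 (adjusted p = 0.37) and 0.30 ± 0.23 with TGFB1 (adjusted p = 0.44). In order of level, the 3 lowest Smad2 groups were wt VEH, mt BMP2 and mt VEH, whose neighbours overlapped, and the mt VEH group did not reach the next one, wt BMP2.

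Smad4, the common partner of both branches (mm9, chromosome 18, minus strand, 73798666 to 73863395), ranged from 25 to 74.5 CPM. Neighbouring Smad4 groups overlapped throughout. Its changes in mt cells were -0.56 ± 0.42 with TGFB2 (adjusted p = 0.41) and -0.57 ± 0.42 with TGFB1 (adjusted p = 0.41); with the replicate block they were -0.52 (adjusted p = 0.024) and -0.56 (adjusted p = 0.017), and without the 4 mt replicate 1 libraries -0.35 (adjusted p = 0.78) and -0.54 (adjusted p = 0.64). In wt cells they were -0.25 ± 0.42 with TGFB2 (adjusted p = 0.76) and 0.03 ± 0.42 with TGFB1 (adjusted p = 0.98). Replicate 1 was above replicate 2 in 8 of 8 groups for Smad4, by a median of 0.58 on the log2 scale, and likewise in 8 of 8 groups for Smad1 (0.43) and Ski (0.34).

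**Figure D4:**
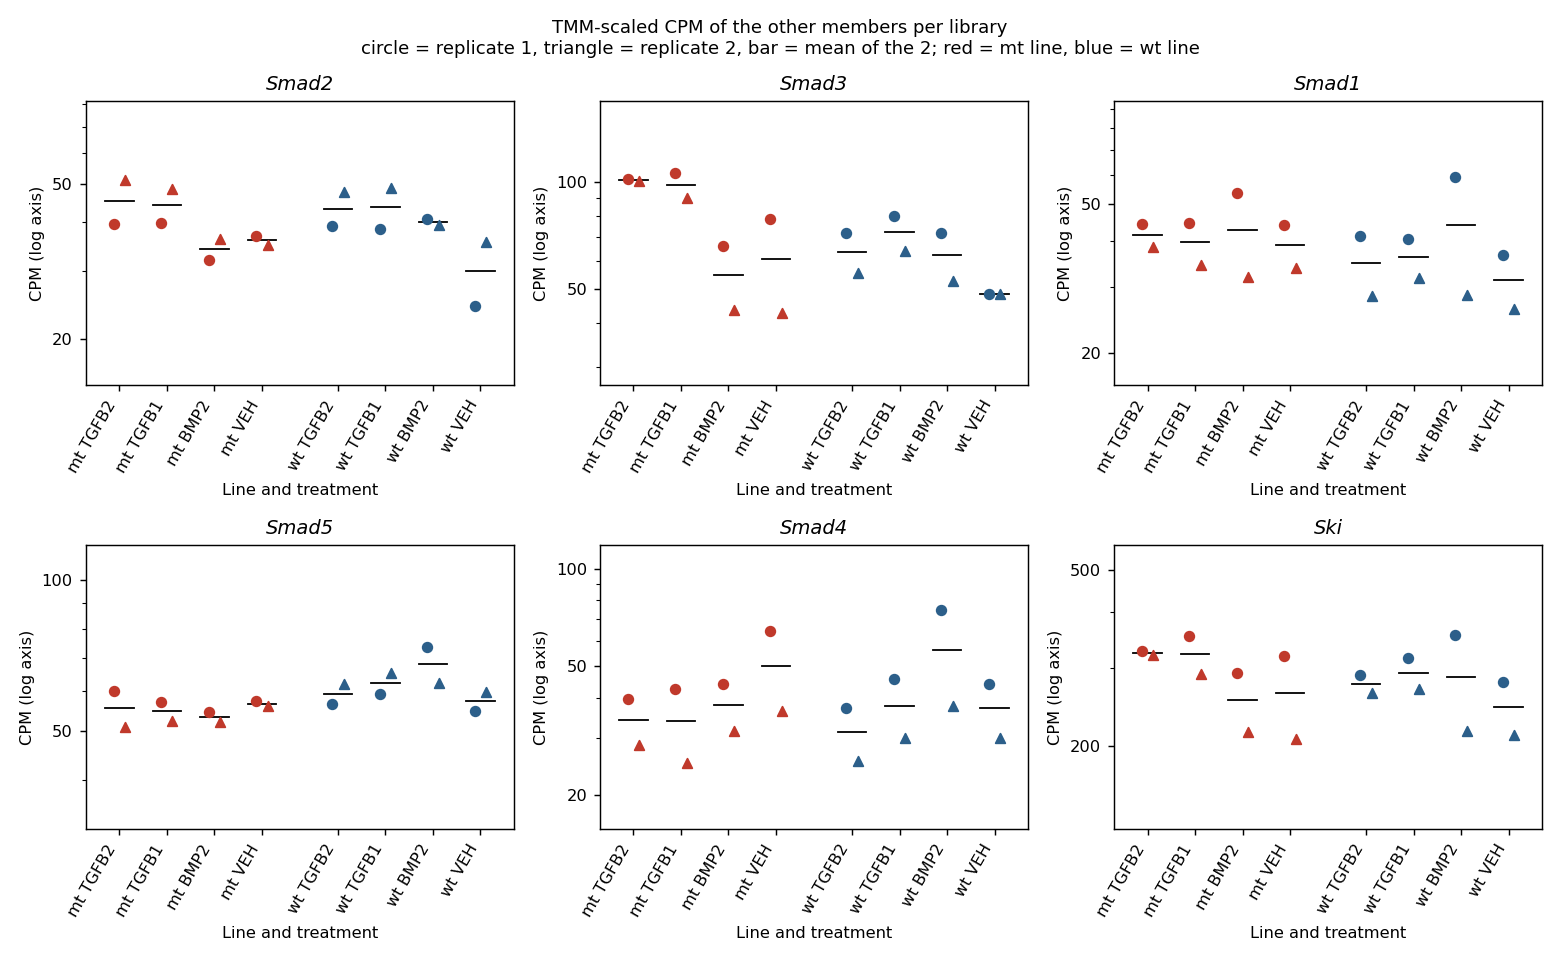
CPM (log axis) of the 6 other genes, Smad2, Smad3, Smad1, Smad5, Smad4 and Ski, in each library by line and treatment; circles are replicate 1, triangles replicate 2 and bars the mean of the pair. Circles lie above triangles in all 8 groups for Smad1, Smad4 and Ski, and the 4 mt TGF-beta libraries are the highest for Smad3.

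Of the Ski family, Skil (mm9, chromosome 3, plus strand, 30993982 to 31021499) encodes a SMAD co-repressor whose gene is itself a known SMAD target. In mt cells it had 103 and 101 CPM with TGFB2, 81.4 and 103 CPM with TGFB1, 54.9 and 64.6 CPM with BMP2, and 34.7 and 43.3 CPM with VEH. In wt cells it had 80.4 and 103 CPM with TGFB2, 81.9 and 90.7 CPM with TGFB1, 47.1 and 42.9 CPM with BMP2, and 21.1 and 30.7 CPM with VEH. All 8 TGF-beta libraries were above all 8 others. Skil rose 2.61-fold with TGFB2 in mt cells (1.38 ± 0.24, adjusted p = 0.0019) and 3.53-fold in wt cells (1.82 ± 0.24, adjusted p = 0.00035). With TGFB1 it rose 2.37-fold in mt cells (1.24 ± 0.23, adjusted p = 0.0038) and 3.33-fold in wt cells (1.74 ± 0.24, adjusted p = 0.00049). Without the 4 mt replicate 1 libraries the mt changes were 1.22 (adjusted p = 0.065) and 1.25 (adjusted p = 0.062), and without mt TGFB1 replicate 2 the TGFB1 change was 1.02 (adjusted p = 0.055).

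In order of level, Skil was lowest in wt VEH, followed by mt VEH, wt BMP2, mt BMP2, wt TGFB1, wt TGFB2, mt TGFB1 and mt TGFB2. The last 4 groups overlapped from neighbour to neighbour, as did mt VEH with wt BMP2. With BMP2 the changes were 0.62 ± 0.23 in mt cells (adjusted p = 1) and 0.80 ± 0.23 in wt cells (adjusted p = 0.91).

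Ski (mm9, chromosome 4, minus strand, 154528183 to 154596644), the founding member of the family, ranged from 207 to 356 CPM and did not pass the test in any of the 15 comparisons. Its changes were 0.30 ± 0.30 with TGFB2 and 0.29 ± 0.30 with TGFB1 in mt cells, and 0.18 ± 0.30 and 0.26 ± 0.30 in wt cells, and groups that neighbour each other in Ski level overlapped throughout. Per Ski read there were 0.315 and 0.314 Skil reads in mt cells with TGFB2, 0.23 and 0.355 with TGFB1, 0.188 and 0.3 with BMP2, and 0.109 and 0.209 with VEH. Wt cells had 0.278 and 0.39 with TGFB2, 0.26 and 0.338 with TGFB1, 0.132 and 0.199 with BMP2, and 0.0759 and 0.145 with VEH. The Skil to Ski ratio was higher in replicate 2 than in replicate 1 in 7 of the 8 groups.

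Set directly against BMP2, the mean of TGFB2 and TGFB1 separated 5 of 10 members in mt cells, against 18.1% of all genes, and 4 of 10 in wt cells, against 24.4%. The doses of the ligands differ, 250 pM for the TGF-beta ligands and 5 nM for BMP2. Smad9 was 26.7-fold lower with TGF-beta in mt cells (-4.74 ± 0.28, adjusted p = 1.5e-06) and 10.2-fold lower in wt cells (-3.35 ± 0.26, adjusted p = 1.3e-05). Smad6 was 16.7-fold lower in mt cells (-4.06 ± 0.26, adjusted p = 2.3e-06) and 7.55-fold lower in wt cells (-2.92 ± 0.25, adjusted p = 2.1e-05). Smad7 was lower as well, by -0.80 ± 0.18 in mt cells (adjusted p = 0.009) and -0.88 ± 0.18 in wt cells (adjusted p = 0.0041). Skil was higher, by 0.70 ± 0.21 in mt cells (adjusted p = 0.035) and 0.98 ± 0.21 in wt cells (adjusted p = 0.0053).

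Smad3 was higher with TGF-beta than with BMP2 in mt cells, by 0.87 ± 0.27 (adjusted p = 0.045), and its value in wt cells was 0.13 ± 0.26 (adjusted p = 0.78). Without the 4 mt replicate 1 libraries the mt values were 1.13 for Smad3 (adjusted p = 0.058), -0.66 for Smad7 (adjusted p = 0.15) and 0.66 for Skil (adjusted p = 0.24), while Smad6 and Smad9 passed at an adjusted p of 5e-04 each. When single mt libraries were left out, the Smad3 call was lost in 6 of 6 fits (0.59 to 1.19) and the Skil call in 5 of 6, all but the fit without mt TGFB1 replicate 1. With no filter on low counts Skil was at 0.67 (adjusted p = 0.077). The Smad7 call was lost without mt BMP2 replicate 1 (-0.65, adjusted p = 0.096). The Smad7 call in wt cells was lost without wt BMP2 replicate 1 (-0.63, adjusted p = 0.071). Smad4 in wt cells was at -0.70 ± 0.36 (adjusted p = 0.18), or -0.66 with the replicate block (adjusted p = 0.0018), where 5 of 10 members and 40.7% of all genes passed.

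TGFB2 and TGFB1, given at the same dose, were compared for all 10 genes in both lines. By edgeR 0 of 10 members and 0% of all genes passed in mt cells, and likewise 0 of 10 members and 0% of all genes in wt cells. An unadjusted p under 0.05 was found for 64 genes in mt cells and 55 in wt cells, none of them a member, and DESeq2 called 0 genes in either line. The 95% intervals limit the difference that may have been missed. For Smad6 the difference was 0.04 in mt cells (-0.62 to 0.69) and 0.13 in wt cells (-0.52 to 0.78). For Skil it was 0.14 in mt cells (-0.36 to 0.64) and 0.08 in wt cells (-0.42 to 0.59). For Smad9 it was -0.25 in mt cells (-1.07 to 0.58) and 0.08 in wt cells (-0.62 to 0.78). No interval of the 10 genes reached further from 0 than 1.07 in mt cells and 1.18 in wt cells on the log2 scale.

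The lines were compared in VEH, in the mean over the 4 treatments, and in the size of each ligand's effect. In VEH 0 of 10 members passed by edgeR, where 3.58% of all genes did; 4 members and 2392 genes had an unadjusted p under 0.05, and DESeq2 called 3 members and 1045 genes. The values, mt over wt, were -1.22 ± 0.31 for Smad9 (adjusted p = 0.053), -1.02 ± 0.30 for Smad6 (adjusted p = 0.096), -0.66 ± 0.21 for Smad7 (adjusted p = 0.14) and 0.59 ± 0.23 for Skil (adjusted p = 0.24). For Smad9, Smad6 and Smad7 both mt VEH libraries were below both wt VEH libraries, and for Skil both were above them. With the replicate block these 4 of 10 members passed, against 10.3% of all genes, with an adjusted p of 0.0072 for Smad9, 0.022 for Smad6, 0.043 for Smad7 and 0.043 for Skil. Without mt VEH replicate 2 the Smad6 value was -1.59 (adjusted p = 0.011). Without the 4 mt replicate 1 libraries the values were -1 for Smad9 (adjusted p = 0.37), -0.62 for Smad6 (adjusted p = 0.65), -0.45 for Smad7 (adjusted p = 0.72) and 0.74 for Skil (adjusted p = 0.49).

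Averaged over the 4 treatments, 2 of 10 members differed between the lines, against 18% of all genes. Smad9 was 2.51-fold lower in mt cells (-1.33 ± 0.17, adjusted p = 0.00021), and the value was -1.22 (adjusted p = 0.0044) without the 4 mt replicate 1 libraries. Smad6 was 1.41-fold lower in mt cells (-0.49 ± 0.15, adjusted p = 0.038), a call that was lost in 12 of the 16 fits that left out 1 library, all but those without wt TGFB2 replicate 1, wt BMP2 replicate 2 or either mt VEH library, and also without the 4 mt replicate 1 libraries (-0.39, adjusted p = 0.12). By treatment, the mt libraries were below the wt libraries for Smad6 with TGFB2, TGFB1 and VEH and above them with BMP2. With the replicate block 4 of 10 members passed, against 34.1% of all genes: Smad3 (0.31, adjusted p = 0.028) and Skil (0.32, adjusted p = 0.012) were then also higher in mt cells. Without the 4 mt replicate 1 libraries the values were 0.08 for Smad3 (adjusted p = 0.75) and 0.42 for Skil (adjusted p = 0.086).

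No member passed the test of a difference between the lines in the effect of a ligand. By edgeR 0 of 10 members passed for TGFB2, against 0.0475% of all genes; 0 of 10 for TGFB1, against 0.0119%; and 0 of 10 for BMP2, against 0%. DESeq2 called 0 members in each, and 128 genes for TGFB2, 114 for TGFB1 and 2 for BMP2, where edgeR called 8, 2 and 0. An unadjusted p under 0.05 was found by edgeR for 951 genes with TGFB2, 1041 with TGFB1 and 543 with BMP2. Smad7 had an unadjusted p under 0.05 for all 3 ligands, with a larger effect in mt cells by 0.83 ± 0.30 for TGFB2 (unadjusted p = 0.017, adjusted 0.63), 0.92 ± 0.30 for TGFB1 (0.01, adjusted 0.47) and 0.80 ± 0.30 for BMP2 (0.021, adjusted 0.99). These 3 values share the VEH libraries of both lines, and without the 4 mt replicate 1 libraries they were 0.62 for TGFB2, 0.68 for TGFB1 and 0.45 for BMP2 (adjusted p = 1 each). For Smad6 with BMP2 the effect was larger in mt cells by 1.46 ± 0.42 (unadjusted p = 0.0046, adjusted 0.99), and by 0.96 (adjusted p = 1) without the 4 mt replicate 1 libraries.

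**Figure D5:**
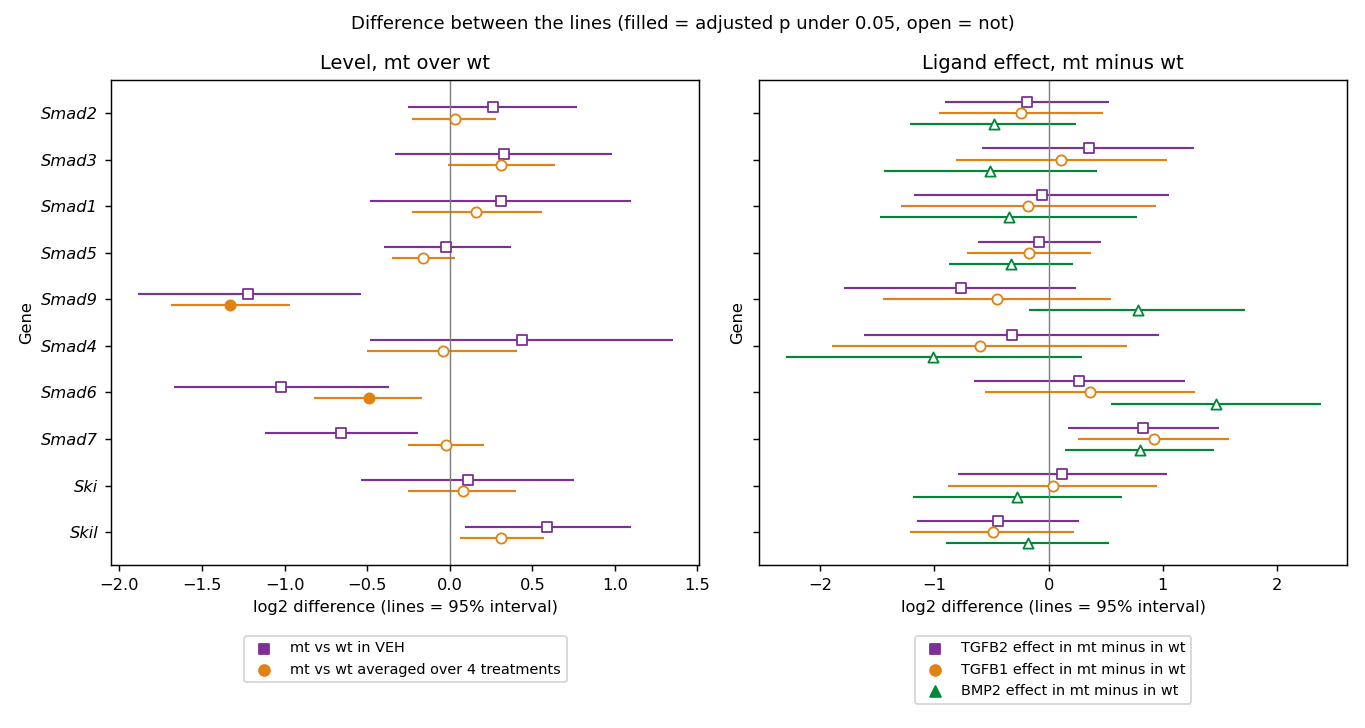
Log2 differences between the lines for the 10 genes (rows), with 95% intervals. The left panel gives the level in mt over wt, in VEH (squares) and averaged over the 4 treatments (circles); the right panel gives the effect of TGFB2 (squares), TGFB1 (circles) and BMP2 (triangles) in mt minus that in wt. Filled symbols, with an adjusted p under 0.05, are Smad9 at -1.33 and Smad6 at -0.49 in the average over treatments.

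The genes whose levels over the 16 libraries were most like those of the 4 responsive members were found by the root mean square difference of centred log2 CPM among 12402 genes. Closest to Smad6 were Prrx2 (0.40), Cxcr7 (0.49) and Slco2a1 (0.51), against a spread of Smad6 around its own mean of 1.56. Closest to Smad9, with a spread of 2.01, were Lrrn4 (0.38), Atoh8 (0.46) and the entry named okadin type I (0.46). Lrrn4, the nearest, is also in the list of epicardial and mesothelial markers, whose sum was lower in the TGF-beta libraries. Slc16a3 (0.23), Tle3 (0.26) and Smarcd3 (0.32) were nearest to Smad7, with a spread of 0.48. Foxp1 (0.21), B230120H23Rik (0.23) and Sh3glb1 (0.24) were nearest to Skil, with a spread of 0.69.

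Genes around the SMADs were read from lists chosen with earlier results of these data known. Their counts and medians describe the lists and are no independent test. Of 12 type I and type II receptor genes 11 were tested, Acvr1c being under the filter. With TGFB2, 2 rose and 3 fell in mt cells, against 17.4% of all genes called. In wt cells 2 rose and 2 fell, against 20.1%. The median change of the receptor genes was 0.37 in mt cells and 0.33 in wt cells, where the medians of all genes were -0.01 and 0.02. With TGFB1, 2 rose and 2 fell in mt cells, against 16.4% of all genes. In wt cells 2 rose and 1 fell, against 19%, or 5 called with the replicate block, against 33.4%. Acvrl1, the type I receptor ALK1 that signals through the BMP-branch SMADs, rose with TGFB2 by 2.13 ± 0.37 in mt cells (adjusted p = 0.0023) and 2.43 ± 0.37 in wt cells (adjusted p = 0.00087). Acvr1b, an activin type I receptor of the SMAD2 and SMAD3 branch, fell with TGFB2, at -1.25 ± 0.22 in mt cells (adjusted p = 0.0022) and -0.96 ± 0.21 in wt cells (adjusted p = 0.0065). Tgfbr1, the main TGF-beta type I receptor, rose with TGFB2 by 1.2 ± 0.32 in mt cells (adjusted p = 0.023) and 1.22 ± 0.32 in wt cells (adjusted p = 0.018). Tgfbr2, of the same list, fell in mt cells. It was at -0.89 ± 0.17 with TGFB2 (adjusted p = 0.0039) and -0.9 ± 0.17 with TGFB1 (adjusted p = 0.0039). In wt cells Tgfbr2 was not called with either ligand. In VEH, Bmpr1b, a BMP type I receptor, was higher in mt cells (2.08 ± 0.35, adjusted p = 0.0076), and Acvr1b was lower in mt cells (-1.58 ± 0.21, adjusted p = 0.0019).

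Of 17 genes for SMAD ubiquitin ligases, deubiquitinases and phosphatases, 1 rose and 4 fell with TGFB2 in mt cells, against 17.4% of all genes. In wt cells 3 rose and 4 fell, against 20.1%. With TGFB1 the counts were also 1 up and 4 down in mt cells, against 16.4%. They were 3 up and 4 down in wt cells, against 19%. With the replicate block the TGFB1 counts in mt cells were 3 up and 7 down, against 32.5%. The median TGFB2 change was -0.26 in mt cells and -0.08 in wt cells. Smurf2, a ligase that binds SMAD7, rose with TGFB2 by 0.90 ± 0.19 in mt cells (adjusted p = 0.006) and 1.02 ± 0.19 in wt cells (adjusted p = 0.0024). The small C-terminal domain phosphatase genes, whose products remove phosphates from SMAD proteins, were among the falls: with TGFB2 Ctdspl was at -1.67 ± 0.20 in mt cells (adjusted p = 0.00026) and -1.09 ± 0.20 in wt cells (adjusted p = 0.0025). Ctdsp2 was at -1.93 ± 0.27 in mt cells (adjusted p = 0.00067) and -1.44 ± 0.27 in wt cells (adjusted p = 0.0028).

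Of 10 genes for SMAD anchors and shuttling factors 9 were tested. With TGFB2, 1 rose and 1 fell in each line, against 17.4% of all genes in mt cells and 20.1% in wt cells. The median was -0.13 in mt cells and -0.06 in wt cells. Pmepa1, whose membrane protein sequesters SMAD2 and SMAD3, rose by 2.30 ± 0.42 in mt cells (adjusted p = 0.003) and 3.72 ± 0.45 in wt cells (adjusted p = 0.00024). Zfyve9, which encodes the anchor SARA, was at -1.02 ± 0.27 in mt cells (adjusted p = 0.023) and -1.08 ± 0.27 in wt cells (adjusted p = 0.014).

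Of 26 nuclear co-regulator genes 21 were tested. With TGFB2, 3 rose and 1 fell in mt cells, against 17.4% of all genes, or 5 and 2 with the replicate block, against 33.5%. In wt cells 2 rose and 3 fell, against 20.1%, or 5 and 4 with the replicate block, against 34.7%. The median was 0.11 in mt cells and -0.03 in wt cells. Runx1, which encodes a transcription factor that binds SMADs, rose by 2.61 ± 0.34 in mt cells (adjusted p = 0.00037) and 3.16 ± 0.34 in wt cells (adjusted p = 0.00014). Tgif1, a SMAD co-repressor gene, rose by 1.47 ± 0.19 in mt cells (adjusted p = 0.00042) and 1.26 ± 0.19 in wt cells (adjusted p = 0.00083). Runx2, a relative of Runx1 known as a partner of BMP-branch SMADs, fell, at -1 ± 0.26 in mt cells (adjusted p = 0.019) and -0.82 ± 0.25 in wt cells (adjusted p = 0.04).

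The list of TGF-beta and SMAD3 targets holds 25 genes. With TGFB2, 13 rose and 3 fell in mt cells, against 17.4% of all genes. In wt cells 12 rose and 2 fell, against 20.1%. The medians were 1.14 and 1.33. The falls in both lines were the collagen genes Col1a2 and Col3a1, and Tgfbi also fell in mt cells. Of 24 BMP and SMAD1/5 targets 18 were tested. With TGFB2, 1 rose and 10 fell in mt cells, against 17.4% of all genes. In wt cells 1 rose and 12 fell, against 20.1%. The medians were -1.28 and -1.41. Atoh8, a BMP target that was also among the 3 genes nearest to Smad9 in level, fell with TGFB2, at -4.93 ± 0.35 in mt cells (adjusted p = 9.5e-06) and -2.77 ± 0.31 in wt cells (adjusted p = 0.00016). With BMP2, 2 of the 18 BMP targets rose in mt cells, Dlx3 and Tbx20, where 0.0416% of all genes passed. With the replicate block 4 rose, where 0.232% of all genes passed. The median of the 18 was 0.84 beside -0.01 over all genes. In wt cells 0 of the 18 and 0% of all genes passed by edgeR with BMP2, with a median of 0.45 beside 0.01.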

How the data were processed

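Polyadenylated RNA of 16 libraries was sequenced. The authors deposited 2 tables, 1 per replicate number, holding counts (raw reads per gene) and rpm (reads scaled to a total of 1e+06) for each library; the deposited rpm matched reads over the column total to within 2.9e-11 and were not used further. Reads were aligned with TopHat or TopHat2 to mm9, per the submitters' processing notes; the counting program and strandedness are not given in the sources used here. From the replicate 2 table, 2 rows lacking a gene name were left out.

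Counts were fitted with edgeR 4.0.16 under R 4.3.3 (filterByExpr, TMM, robust quasi-likelihood fit of 8 group means, F test, Benjamini-Hochberg adjustment over 16835 genes). Each SE was obtained by dividing the size of the log2 fold change by √F. The biological coefficient of variation was 0.274 with 8 residual degrees of freedom. The replicate numbers were taken to pair the samples, since deviations from the group means correlated by more than 0.1 between same-numbered libraries for 28 of 28 group pairs (0.16 to 0.76), so a fit with the replicate number as a block (coefficient of variation 0.17) is given where it changes a call. Other alternatives were RLE size factors, no filter, DESeq2 1.42.0, fits to only the groups compared, single libraries left out, and the 4 mt replicate 1 libraries left out. The script was tested on simulated data.

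Named are the members, Tgfbr3, up to 3 called list genes per direction with the smallest p in a comparison, and the 3 genes nearest in level to each of 4 members among genes averaging 5 CPM or more. The members and lists were chosen with earlier results of these data known. Pmepa1, Tgif1 and Runx2 each stand in 2 lists.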

Additional observations from a re-analysis of the deposited data

Results flagged for a closer look

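In 3 cases the members' ligand effects ran in opposite directions in the 2 lines in both numbered pairs of libraries. For Smad7 with TGFB1, replicates 1 and 2 changed by 0.98 and 0.47 in mt cells and by -0.25 and -0.18 in wt cells on the log2 scale; the difference of the effects, mt minus wt, was 0.92 ± 0.30 (edgeR adjusted p = 0.47). For Smad4 with BMP2 the changes were -0.54 and -0.20 in mt cells and 0.76 and 0.33 in wt cells, a difference of -1.01 ± 0.60 (adjusted p = 0.99). For Smad5 with BMP2 they were -0.07 and -0.10 in mt cells and 0.43 and 0.06 in wt cells, a difference of -0.33 ± 0.25 (adjusted p = 0.99). None of the 3 differences passed the test.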

How the results depend on the processing

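No called value of the 10 genes changed sign under any alternative that was run, and RLE size factors changed no call (largest shift of the median of all genes 0.023). With the replicate block the number of members called was 5 for TGFB1 against VEH in wt cells (3 without it), 2 for BMP2 in mt cells (1), 4 for mt against wt in VEH (0) and 4 averaged over treatments (2); the further calls it added are given beside their genes, and it changed no other call. DESeq2 called 2 members and 47 of all genes for BMP2 in mt cells, and 3 members and 1045 genes for mt against wt in VEH. With no filter the member counts were 2 and 1. Averaged over treatments, Skil was at 0.31 by DESeq2 (adjusted p = 0.046) and at 0.39 without wt VEH replicate 2 (adjusted p = 0.048). With only the compared groups in the fit, 1 member was called for TGFB1 in mt cells (4 in the full fit), 0 for BMP2 in mt cells, and 3 for TGF-beta against BMP2 in mt cells (5); these fits have fewer libraries, and for TGFB1 in mt cells they gave -2.14 for Smad6 (adjusted p = 0.066) and 1.26 for Skil (adjusted p = 0.11), with 297 of all genes called (2763 in the full fit). Smad7 with TGFB2 in mt cells was at 0.79 (adjusted p = 0.17) there. Over all genes such fits called 1064 for TGFB2 in mt cells (2933 in the full fit). They called 2398 for TGF-beta against BMP2 in mt cells (3052) and 0 for BMP2 in mt cells (7). That fit was not run for the average over treatments, which uses all groups. Without the 4 mt replicate 1 libraries each mt group has 1 library. In that fit Smad6 was at -2.41 with TGFB2 and -2.55 with TGFB1 in mt cells, and Smad9 was at -3.63 and -3.88. The calls lost there are given beside their genes.

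Leaving out 1 compared library at a time gave 2 to 4 members for TGFB1 in mt cells, 0 to 1 for BMP2 in mt cells, 2 to 4 for TGF-beta against BMP2 in mt cells (lowest without mt BMP2 replicate 1), 0 to 1 for mt against wt in VEH and 1 to 2 averaged over treatments. The counts were 3 to 4 for TGFB2 in mt cells and 3 in every such fit for TGFB2 and for TGFB1 in wt cells. Over all genes these fits called 1307 to 2665 for TGFB2 and 1187 to 2535 for TGFB1 in mt cells, 1748 to 2074 and 1556 to 1892 in wt cells, 0 to 2 for BMP2 in mt cells, 1337 to 2705 for TGF-beta against BMP2 in mt cells, 113 to 877 in VEH and 2175 to 3131 averaged over treatments. Depth limits Smad9 most, with 9 reads in its lowest library.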

Other observations

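The reads of the TGF-beta-branch SMAD genes stood in a ratio that varied with the replicate number. Per Smad2 read there were 2.57 and 1.97 Smad3 reads in mt cells with TGFB2, 2.66 and 1.86 with TGFB1, 2.07 and 1.2 with BMP2, and 2.14 and 1.22 with VEH, for replicates 1 and 2. Wt cells had 1.83 and 1.17 with TGFB2, 2.09 and 1.31 with TGFB1, 1.76 and 1.34 with BMP2, and 1.98 and 1.36 with VEH. Replicate 1 was above replicate 2 in all 8 groups, and within each replicate number the mt TGF-beta libraries had the highest ratios. With BMP2 and with VEH the mt ratio was above the wt ratio in replicate 1 and below it in replicate 2. The ratio was not tested.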
